A study of Mus musculus with 7 samples.

Results

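OX40 ligand, encoded by Tnfsf4, was described together with 8 other tumour necrosis factor (TNF) superfamily genes of T cell co-stimulation. The genes comprise 6 ligands (Tnfsf4, Cd70, Tnfsf9, Tnfsf13b, Tnfsf15 and Tnfsf14) and 3 receptors (Tnfrsf4, Tnfrsf9 and Cd40), and were picked by name from the 48440 genes listed for each library. All 9 passed the filter on low counts, as did 12261 genes in all. The libraries came from CD11b+ migratory dendritic cells, sorted from the lymph node that drains the lung as cells with CD11c, CD11b and high MHC class II, and negative for CD103, CD64 and B220. Infant mice aged 2 to 3 weeks gave 4 libraries, and adult mice aged 7 weeks gave 3. Mice of both ages were of the B6 strain and had received house dust mite allergen with LPS into the nose 24 h earlier, so neither group shows the resting state.

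Ligands of the TNF superfamily sit on the surface of activated dendritic cells and bind receptors on T cells, B cells and other leukocytes. The receptors recruit TRAF adaptors, which activate NF-kB and keep the receiving cell alive and dividing. OX40 ligand on dendritic cells is known for favouring type 2 helper responses in allergic airway inflammation, while CD40 works in the opposite direction, taking a signal from CD40 ligand on T cells into the dendritic cell.

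Tnfsf4 and Tnfrsf4, the ligand and receptor of the OX40 pair, and Cd70 were higher in every infant library than in any adult library. The other 6 genes overlapped between the ages, Cd40 among them. Of all tested genes, 7.97% were likewise higher in every infant library than in any adult library. In exon reads 0 of the 9 passed an adjusted p of 0.05, in edgeR's quasi-likelihood F test adjusted by Benjamini and Hochberg's method over all tested genes. That test called 0.0163% of all genes, or 2. At an unadjusted p under 0.05, 3 of the 9 genes were higher in infants and 0 were lower, against 6.53% of all genes higher and 6.73% lower. DESeq2 called 2 of the 9, Tnfsf4 and Tnfrsf4, both higher in infants, where it called 1.47% of all genes and 0.539% as higher. The median log2 fold change of the 9, infant over adult, was 0.40, and that of all tested genes was 0.0016. The 9 genes were chosen with earlier results of these data known, so their contrasts with all genes are no test of enrichment. In intron reads, a second readout of the same libraries, edgeR called 1 of the 6 genes with enough reads, Tnfrsf4, where it called 0.542% of all genes and 0.0625% as higher in infants. DESeq2 also called Tnfrsf4 in intron reads, with 1.46% of all genes called.

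**Figure D1:**
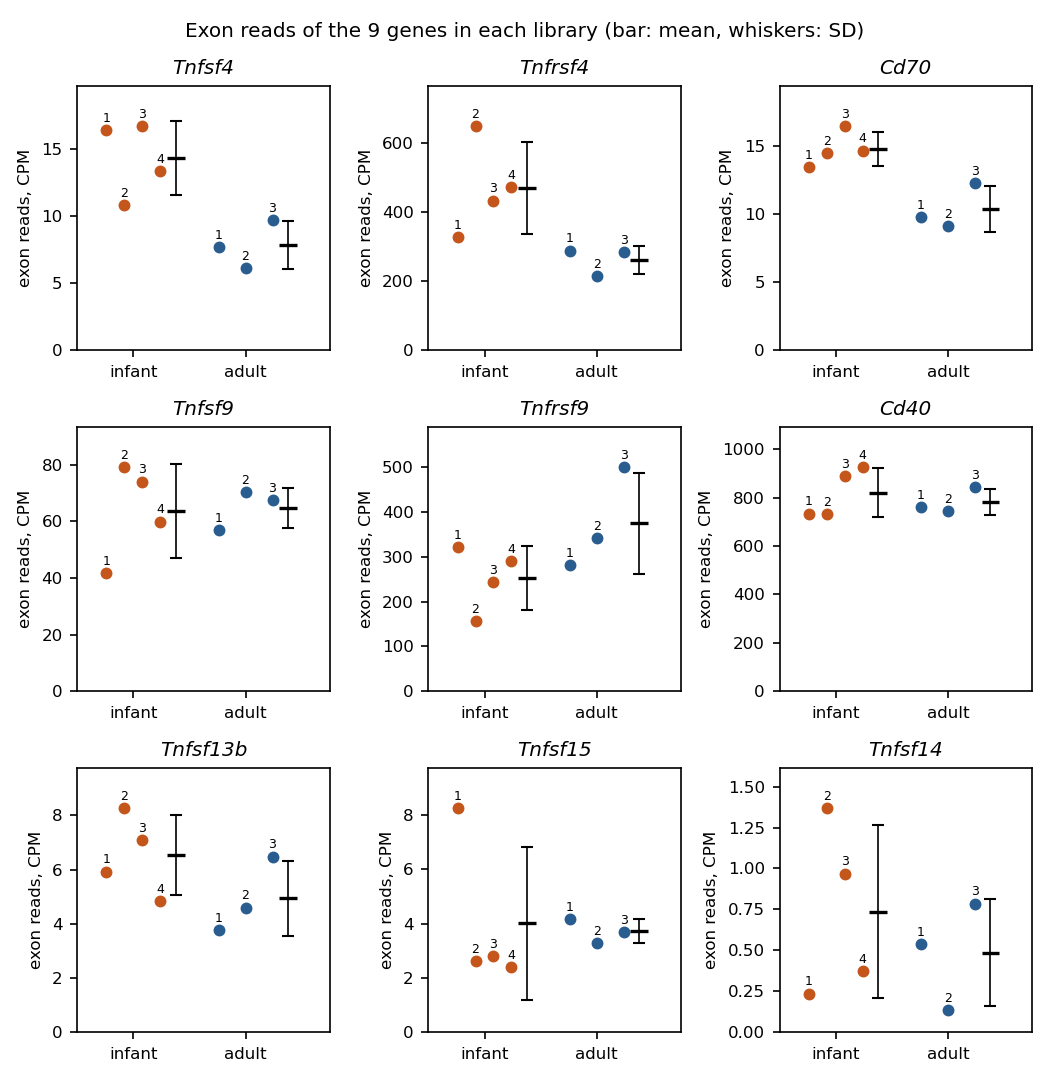
Exon reads scaled to library size (CPM, vertical axes from 0) of each gene in the 4 infant and 3 adult libraries. Numbers mark libraries, bars the mean and whiskers the SD. Every infant point lies above every adult point for Tnfsf4, Tnfrsf4 and Cd70, and the groups overlap for the other 6 genes.

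Infant libraries held 18022302 to 20377361 exon reads and adult libraries 20064331 to 22316484, so 3 reads, the limit that a count of 0 allows, came to between 0.134 and 0.167 counts per 1000000 reads (CPM). Ccr7, the receptor that brings dendritic cells to the lymph node, was at 4599 to 5218 CPM in infants and 5518 to 6392 CPM in adults. Itgam, the gene of CD11b, was low, at 9.83 to 21.2 CPM in infants and 15.7 to 17.5 CPM in adults. Both belong to a list of 8 markers of migratory CD11b+ dendritic cells. That list summed to 20270 to 28280 CPM in infants and 21180 to 22670 CPM in adults. Infant 2 stood apart from the other libraries on the first principal component, and infant 1 on the second. Without both of them the exon log2 fold change was 0.94 for Tnfsf4 (SE 0.23), 0.79 for Tnfrsf4 (SE 0.14) and 0.58 for Cd70 (SE 0.19), with 0 of the 9 genes passing by edgeR. The RNA quality list (Malat1, Neat1 and 3 mitochondrial genes) summed to 15930 CPM in infant 2 and to 5083 to 6510 CPM in the other 6 libraries, with Malat1 at 13540 CPM in infant 2. Markers of the sorted cells differed in infant 2 as well. It was the lowest library for Itgax (26.7 CPM), Irf4 (16.2), Sirpa (120), Fscn1 (1678), Ccl22 (1397) and Itgam (9.83). For H2-Ab1 it was the highest (19860 CPM). Infant 2 also had the highest Tnfrsf4 and the lowest Tnfrsf9 of all libraries. The part of RNA quality and of the cell markers in these values was not tested. The labels do not say whether libraries came from separate mice, and the p-values therefore rest on the spread between libraries, which may be technical. In sorted bulk cells, fewer cells with a transcript and less transcript per cell cannot be told apart. Markers of other cells moved with age in some lists. The 10 T cell markers summed to 77.3 to 102 CPM in infants and 41.8 to 71.4 CPM in adults, with none of them at 0 in all libraries. Among them Cd8a, which some dendritic cells also express, was at 36.4 to 53.8 CPM in infants and 18.2 to 29.3 CPM in adults, and Cd247 was at 3.13 CPM or more in infants and 2.80 CPM or less in adults. Icos overlapped, at 19.6 to 34.9 CPM in infants and 11.9 to 24.8 CPM in adults, and so did Cd3e, at 0.160 to 1.09 CPM in infants and 0.0902 to 0.404 CPM in adults. Foxp3 and Cd3d stayed under 1 CPM in every library. The B cell markers Ms4a1, Cd79a, Cd79b, Pax5 and Fcer2a, 5 in number, summed to 34.2 to 48.9 CPM in infants and 31.0 to 33.4 CPM in adults, mainly from Cd79b, with Pax5 under 1 CPM in every library. The 10 genes of the handling response, which react within minutes to stress, were at 1802 to 3494 CPM in infants and 5637 to 6217 CPM in adults. The 4 plasmacytoid dendritic cell markers summed to 129 to 258 CPM in infants and 270 to 286 CPM in adults, with none at 0. Each of the 4 genes by itself overlapped between the ages. Their sum came mainly from Spib and Bst2, while Siglech and Ccr9 were at 6.07 CPM or less in every library. Lists for natural killer cells, macrophages, monocytes, neutrophils, CD103+ dendritic cells and stroma overlapped between the ages. The macrophage list, mainly from C1qa, C1qb and C1qc, summed to 404 to 1260 CPM in infants and 416 to 944 CPM in adults. The natural killer list, mainly from Klrk1, summed to 335 to 398 CPM and 296 to 400 CPM. Within these lists Adgre1 was apart and higher in infants (65.9 to 79.5 against 48.9 to 59.3 CPM). Itgae was apart and lower (0.586 to 1.26 against 1.39 to 3.24 CPM), as was Vcan. The part of these lists in the results on the 9 genes was not tested.

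Among the ligands, Tnfsf4 (ENSMUSG00000026700, mm10 chr1:161395409-161418410, plus strand) had 347, 206, 293 and 251 exon reads in the infant libraries, against 171, 136 and 198 in the adult libraries. Scaled to library size, these were 16.4, 10.8, 16.7 and 13.4 CPM in infants and 7.68, 6.13 and 9.71 CPM in adults. The groups did not overlap, although infant 2 lay close to adult 3. Groups apart in this direction were seen for 7.97% of all tested genes and for 3 of the 9. The means were 14.3 ± 2.78 CPM in infants (SD, n = 4) and 7.84 ± 1.79 CPM in adults (SD, n = 3). Infant over adult, the log2 fold change was 0.87 (SE 0.23, 95% interval 0.36 to 1.38), with an adjusted p of 0.261 by edgeR and 0.0304 by DESeq2. Tnfsf4 ranked 163 by p among the tested genes in the edgeR fit.

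Reads of Tnfsf4 that crossed an exon-exon junction numbered 60, 39, 59 and 52 in infants and 34, 23 and 39 in adults. They gave a log2 fold change of 0.88 (SE 0.30), close to that of all exon reads, with an adjusted p of 0.333 by edgeR. Intron reads of Tnfsf4 were few, at 6, 24, 14 and 24 in infants against 18, 40 and 20 in adults. Unlike the exon reads they overlapped between the ages. Their log2 fold change was -0.25 (SE 0.50, 95% interval -1.32 to 0.81, adjusted p = 0.906 by edgeR), an interval that reaches into the exon one, and the difference between both readouts was not tested.

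Cd70 (ENSMUSG00000019489, chr17:57145997-57149777, minus strand), the ligand of CD27 on T cells, had 13.4, 14.5, 16.4 and 14.6 CPM in infants, against 9.74, 9.11 and 12.3 CPM in adults. The 4 infant libraries lay close together and above all 3 adult libraries. The means were 14.7 ± 1.24 CPM in infants (SD, n = 4) and 10.4 ± 1.66 CPM in adults (SD, n = 3). This gave a log2 fold change of 0.51 (SE 0.18, 95% interval 0.11 to 0.90), with an adjusted p of 0.314 by edgeR and 0.164 by DESeq2. Its intron reads numbered 0 to 11 in infants and 4 to 12 in adults, too few to test.

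Tnfsf9 (ENSMUSG00000035678, chr17:57105385-57107757, plus strand) encodes 4-1BB ligand, which sustains CD8 T cells. It had 41.8, 79.1, 74.0 and 60.0 CPM in infants, against 56.9, 70.3 and 67.4 CPM in adults. Infant 1 was the lowest and infant 2 the highest of all 7 libraries, with the adults between them. The log2 fold change was -0.03 (SE 0.20, 95% interval -0.48 to 0.43, adjusted p = 0.962 by edgeR). Between 75.8% and 81.2% of its exon reads counted as unique, and it overlaps Gm11110 on the other strand, which had 58 to 127 reads. The sources used here do not say how reads of overlapping genes were counted, so the level of Tnfsf9 is uncertain.

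Tnfsf13b (ENSMUSG00000031497, chr8:10006467-10039072, plus strand) encodes BAFF, a survival factor of B cells. It had 5.92, 8.25, 7.07 and 4.85 CPM in infants and 3.77, 4.60 and 6.47 CPM in adults. Infants 1 and 4 lay within the adult range and infants 2 and 3 above it. Its log2 fold change was 0.40 (SE 0.28, 95% interval -0.21 to 1.01, adjusted p = 0.520 by edgeR).

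Tnfsf15 (ENSMUSG00000050395, chr4:63727084-63745113, minus strand) encodes TL1A, the ligand of death receptor 3 on T cells. It had 8.24, 2.63, 2.79 and 2.40 CPM in infants, against 4.18, 3.29 and 3.68 CPM in adults. Infant 1 was the highest library and the other 3 infant libraries were the lowest. The log2 fold change was 0.12 (SE 0.44, 95% interval -0.86 to 1.09, adjusted p = 0.920 by edgeR) and turned to -0.51 without infant 1 (adjusted p = 0.312).

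Tnfsf14 (ENSMUSG00000005824, chr17:57189492-57194189, minus strand) encodes LIGHT, which binds HVEM and the lymphotoxin beta receptor. It was near the limit of detection, with 5, 26, 17 and 7 exon reads in infants and 12, 3 and 16 in adults. Its log2 fold change was 0.59 (SE 0.75, 95% interval -1.08 to 2.26, adjusted p = 0.734 by edgeR), and a difference was not detectable at this depth. Tnfsf9, Cd70 and Tnfsf14 lie side by side on chromosome 17, with 38239 bases between Tnfsf9 and Cd70 and 39714 between Cd70 and Tnfsf14. Of these 3 neighbours, the groups were apart for Cd70.

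Among the receptors, Tnfrsf4 (ENSMUSG00000029075, chr4:156013843-156016612, plus strand) encodes OX40, which is best known from activated T cells. It had 6911, 12310, 7586 and 8857 exon reads in the infant libraries, against 6409, 4752 and 5776 in the adult libraries. In CPM these were 327, 647, 432 and 472 in infants and 288, 214 and 283 in adults. All 4 infant libraries lay above the adults, infant 2 by far the most and infant 1 the least. The means were 470 ± 133 CPM in infants (SD, n = 4) and 262 ± 41.2 CPM in adults (SD, n = 3). The log2 fold change was 0.84 (SE 0.22, 95% interval 0.36 to 1.33), with an adjusted p of 0.246 by edgeR and 0.0229 by DESeq2. Without infant 2 it was 0.65 (SE 0.16, adjusted p = 0.149 by edgeR). The T cell list was higher in infants as well, as given above, and its part in the Tnfrsf4 difference was not tested.

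No other gene in the annotation overlaps Tnfrsf4. Sdf4 ends 232 bases upstream, and Tnfrsf18, the gene of the related receptor GITR, starts 9551 bases downstream. Tnfrsf18 averaged 196 ± 26.9 CPM in infants (SD, n = 4) and 167 ± 15.6 CPM in adults (SD, n = 3), with a log2 fold change of 0.22 and an SE of 0.14 (edgeR adjusted p = 0.481). Because Tnfrsf4 is the gene called in intron reads, the 84 bases between Sdf4 and the Tnfrsf4 start of RefSeq are shown, from the GRCm38.p6 build at chr4:156013611-156013694 on the plus strand, with no base in capitals.
Tnfrsf4 upstream: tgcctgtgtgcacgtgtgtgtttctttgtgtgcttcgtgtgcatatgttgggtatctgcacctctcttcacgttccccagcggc

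Intron reads of Tnfrsf4 numbered 362, 756, 395 and 371 in infants, against 198, 177 and 199 in adults. Every infant library had more than any adult library. Scaled to the intron reads of each library, the means were 472 ± 178 CPM in infants (SD, n = 4) and 160 ± 33.2 CPM in adults (SD, n = 3). Intron reads of Tnfrsf4 rose by a log2 fold change of 1.57 in infants (SE 0.27, 95% interval 1.01 to 2.13), which passed in edgeR (adjusted p = 0.0162) and in DESeq2 (adjusted p = 2.15e-05). The edgeR call ended without infant 3 (log2 fold change 1.57, adjusted p = 0.0668), infant 4 (1.65 and 0.0529), adult 2 (1.41 and 0.115) or adult 3 (1.68 and 0.114), where the size of the change moved little. Over all genes, edgeR called 6 as higher in infants and 46 as lower in intron reads.

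Intron reads made up 4.98%, 5.79%, 4.95% and 4.02% of the Tnfrsf4 gene reads in infants, and 3.00%, 3.59% and 3.33% in adults. The intron share of Tnfrsf4 was thus higher in each infant library than in each adult one. How many other genes were apart in intron share or in intron reads was not counted. Pooled over all reads of a library, the share overlapped, at 4.45% to 5.37% in infants and 4.93% to 6.36% in adults. For Tnfsf4 the share was 1.70%, 10.4%, 4.56% and 8.73% in infants and 9.52%, 22.7% and 9.17% in adults, which rests on 40 intron reads or fewer per library. For Cd40 it overlapped, at 3.28% to 4.40% in infants and 3.55% to 5.53% in adults.

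**Figure D2:**
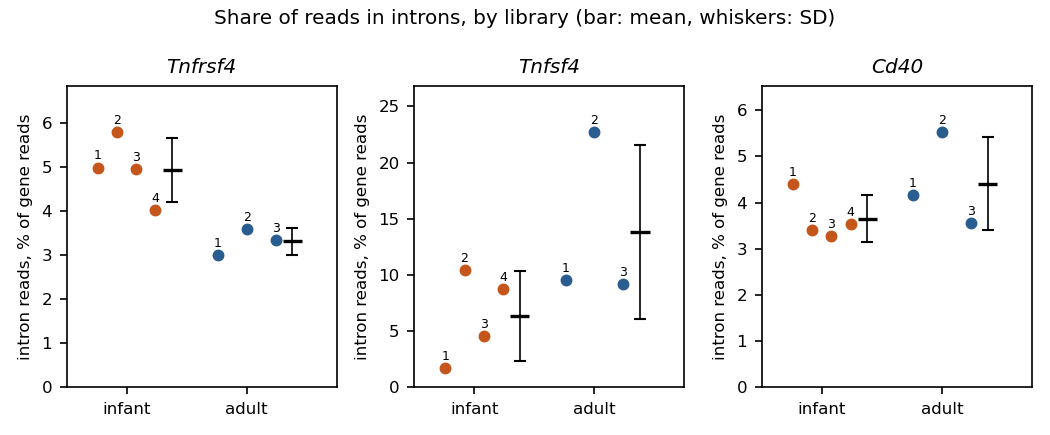
Intron reads as a percentage of all reads of the gene (vertical axes from 0) for Tnfrsf4, Tnfsf4 and Cd40, with 1 numbered point per library, the mean as a bar and the SD as whiskers. For Tnfrsf4 the 4 infant libraries lie between 4.02% and 5.79%, all above the adult libraries, and the groups overlap for Tnfsf4 and Cd40.

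Tnfrsf9 (ENSMUSG00000028965, chr4:150914562-150946102, plus strand) encodes 4-1BB, the receptor of Tnfsf9. It had 322, 157, 244 and 290 CPM in infants, against 282, 341 and 499 CPM in adults. Infant 2 was the lowest library and adult 3 the highest, and the groups overlapped through infants 1 and 4. The means were 253 ± 71.7 CPM in infants (SD, n = 4) and 374 ± 112 CPM in adults (SD, n = 3), with a log2 fold change of -0.56 (SE 0.25, 95% interval -1.13 to 0.00017, adjusted p = 0.376 by edgeR). Without infant 2 it was -0.39 (SE 0.19), and without adult 3 it was -0.30 (SE 0.26).

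Between 42.8% and 47.9% of the Tnfrsf9 exon reads counted as unique. The gene overlaps Camta1 on the other strand, which had 144 to 254 exon reads. As for Tnfsf9, the level of Tnfrsf9 is therefore uncertain. Junction reads alone gave -0.61 on the log2 scale (SE 0.27, edgeR adjusted p = 0.381), and unique exon reads gave -0.60 (SE 0.26). Both counts were nearly equal in every library, such as 3090 junction and 3092 unique reads in infant 1. They are therefore not separate checks on the level. Intron reads gave -0.26 (SE 0.24), with the same sign.

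Cd40 (ENSMUSG00000017652, chr2:165055627-165072948, plus strand) was abundant at both ages. It had 733, 732, 889 and 924 CPM in infants, against 760, 743 and 843 CPM in adults. The adult libraries all lay inside the infant range. The means were 820 ± 101 CPM in infants (SD, n = 4) and 782 ± 53.9 CPM in adults (SD, n = 3). The log2 fold change was 0.07 (SE 0.14, adjusted p = 0.841 by edgeR), with a 95% interval of -0.233 to 0.370. The upper end of that interval overlapped those of Tnfsf4 and Tnfrsf4, which began at 0.359 and 0.356. Fold changes of different genes were not tested against each other in this fit. Intron reads of Cd40 gave -0.09 (SE 0.18).

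**Figure D3:**
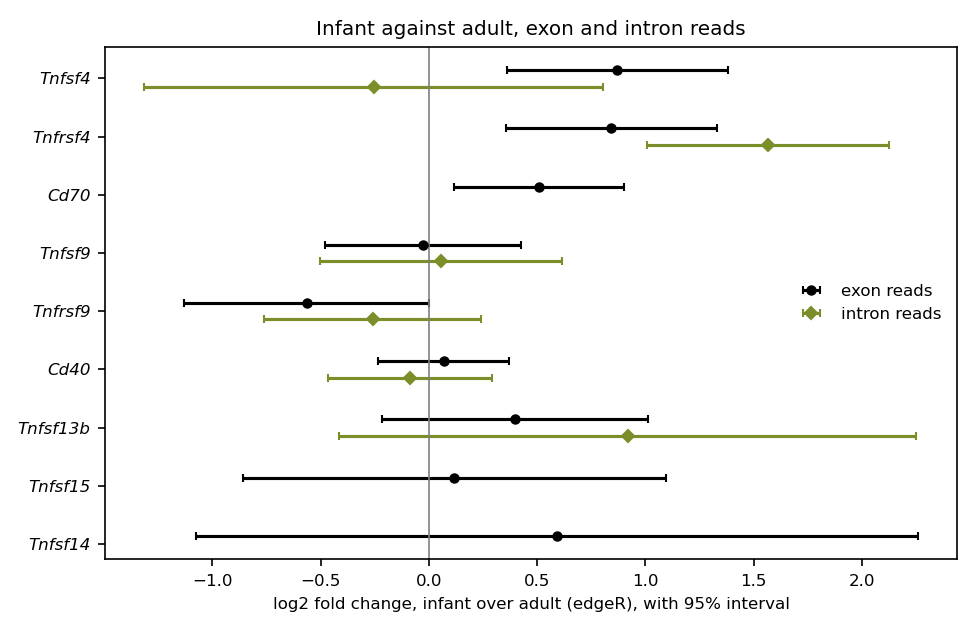
Log2 fold change, infant over adult, of exon reads (circles, 9 genes) and intron reads (diamonds, the 6 genes with enough reads) from edgeR, with 95% intervals. The exon intervals of Tnfsf4, Tnfrsf4 and Cd70 lie above 0, as does the intron interval of Tnfrsf4, while the intron interval of Tnfsf4 spans -1.32 to 0.81.

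The RefSeq promoter table of the GRCm38.p6 build held 7 windows for 5 of the 9 genes, Tnfsf15, Tnfrsf9, Tnfrsf4, Tnfsf13b and Tnfsf14, each running from 250 bases before to 50 after a start. The kappaB-type motif GGGANNNNCC, searched on both strands, was found in 20.7% of all 32851 windows of the table, and the AP-1 motif TGANTCA, whose reverse complement is itself, in 7.81%. Neither was found in the windows of Tnfrsf4 and Tnfsf15 or in the first of the Tnfrsf9 windows. The second Tnfrsf9 window held both motifs, without overlap, as did that of Tnfsf14, and the Tnfsf13b windows held the AP-1 motif. The kappaB-type match of Tnfrsf9 begins 42 bases before the start and is shown, in capitals, at chr4:150927947-150927976 on the plus strand. A link between matches and fold changes was not tested. A match describes the letters in the window and is not a measured binding site.
Tnfrsf9 kappaB-type match: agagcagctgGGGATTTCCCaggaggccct

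Levels of the genes were compared per length, in the authors' TPM, a measure scaled to length and library size. Over the 7 libraries Tnfrsf4 averaged 657 TPM, Cd40 564, Tnfrsf9 271, Tnfsf9 124, Cd70 36.3, Tnfsf4 14.9, Tnfsf15 2.81, Tnfsf13b 2.02 and Tnfsf14 0.788 TPM. Tnfrsf4 and Cd40 were not ordered beyond their spread, since Tnfrsf4 was the higher in 4 of 7 libraries, those of the infants. Cd40 exceeded Tnfrsf9, Tnfsf9 exceeded Cd70, Cd70 exceeded Tnfsf4 and Tnfsf4 exceeded Tnfsf15 in 7 of 7 libraries with ranges apart. Tnfrsf9 was above Tnfsf9 in 6 of 7 libraries and Tnfsf15 above Tnfsf13b in 5 of 7, with overlapping ranges. The places of Tnfrsf9 and Tnfsf9 in this order rest on levels that are uncertain, as given above.

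On the TPM scale Tnfsf4 was at 22.2, 13.0, 20.4 and 17.2 in infants and at 10.2, 8.43 and 12.9 in adults, so infant 2 and adult 3 almost met. Tnfrsf4 was at 596, 1048, 714 and 821 TPM in infants and at 515, 398 and 508 TPM in adults. Levels of Tnfrsf4 per length were thus far above those of its ligand in every library of both ages.

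**Figure D4:**
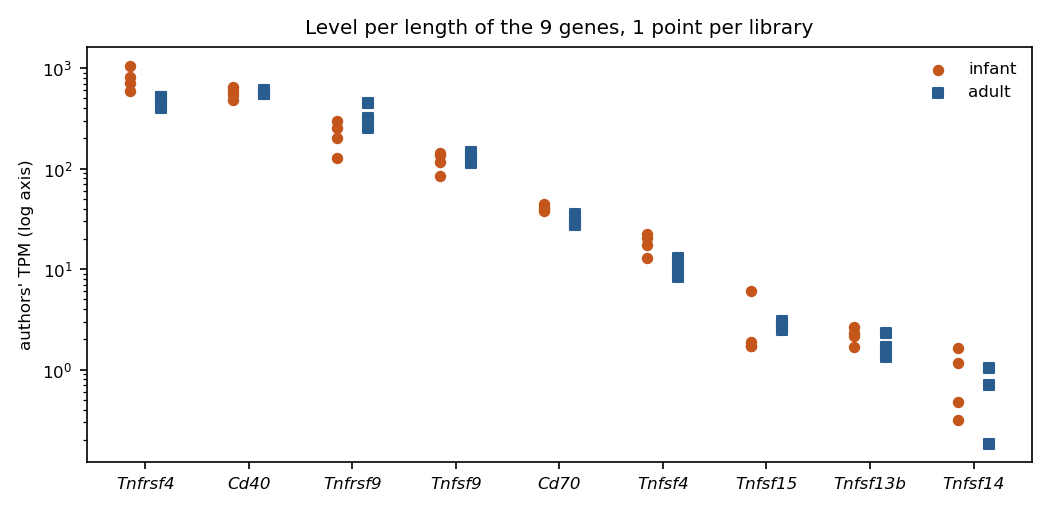
The authors' TPM (log axis) of the 9 genes, ordered by their mean over the 7 libraries, with 1 point per library (circles, infant; squares, adult). Tnfrsf4 and Cd40 lie highest, at means of 657 and 564 TPM, and Tnfsf4 lies sixth at 14.9 TPM.

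Ratios within a library do not depend on how libraries are scaled. The log2 ratio of Tnfsf4 to Cd40 exon reads was -5.48, -6.08, -5.73 and -6.11 in infants, against -6.62, -6.92 and -6.44 in adults. Each infant ratio was above each adult ratio, and the means, -5.85 ± 0.30 in infants and -6.66 ± 0.24 in adults (SD, n = 4 and 3), differed by 0.81 (exact two-sided permutation test over libraries, p = 0.0571). That p is the smallest that 4 against 3 libraries allow. The Tnfsf4 to Tnfrsf9 log2 ratio averaged -4.11 ± 0.30 in infants and -5.55 ± 0.32 in adults (SD), again with every infant library above. Against Tnfrsf4 the ratio overlapped, at -5.01 ± 0.68 in infants and -5.07 ± 0.19 in adults (SD). The log2 ratio of Tnfrsf4 to Tnfrsf9, the 2 receptors on chromosome 4, averaged 0.90 ± 0.84 in infants and -0.49 ± 0.45 in adults (SD), with infant 1 and adult 1 both near 0.03. Ratios to Tnfrsf9 rest on its uncertain level.

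The genes whose exon CPM followed Tnfsf4 most closely were found by the root-mean-square difference of log2 CPM, each gene centred on its own mean over the 7 libraries. They were Efemp2 (0.146), Dynlt1a (0.148), 2700012I20Rik (0.178), Lmbr1 (0.191) and Arg2 (0.210), where the median of all tested genes was 0.577. Dynlt1a has near-identical copies, so its count is uncertain, and 2700012I20Rik was at about 1 CPM. Arg2, an arginase, averaged 12.4 ± 2.29 CPM in infants (SD, n = 4) and 7.48 ± 1.64 CPM in adults (SD, n = 3). Of the other 8 co-stimulation genes, Cd70 was the closest to Tnfsf4 (0.269), then Tnfsf13b (0.436), Tnfrsf4 (0.456) and Cd40 (0.461), and the remaining 4 were farther than the median gene. A gene that varies little can also score low by this measure, as Cd40 did with a log2 fold change of 0.07. A value under the median therefore does not show that a gene followed Tnfsf4.

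The binding partners that the 9 proteins meet on other cells were mostly low. Transcripts of Cd40lg, the ligand of CD40, numbered 0 to 3 reads per infant library and 0 to 6 per adult library, and Tnfrsf17, the BAFF receptor of plasma cells, had 0 reads. Of the 8 partner genes, 6 could be tested and 0 passed by edgeR, DESeq2 or an unadjusted p under 0.05, with a median log2 fold change of -0.15. Tnfrsf13b, the gene of TACI, a BAFF receptor, was the most abundant at 41.4 ± 4.65 CPM in infants (SD, n = 4) and 42.9 ± 2.99 CPM in adults (SD, n = 3), with a log2 fold change of -0.05 (SE 0.14). Ltbr, the lymphotoxin beta receptor, was at -0.25 (SE 0.35), Tnfrsf14, the gene of HVEM, at -0.51 (SE 0.34) and Cd27 at 0.04 (SE 0.31). Tnfrsf25, the receptor of TL1A, at 0.54 (SE 0.66) and Tnfrsf13c, another BAFF receptor, at -1.27 (SE 0.83) had at most 32 reads in a library.

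In the rest of the superfamily and in the pathway behind it, edgeR passed 0 genes in every list. Over all genes, 6.53% were higher and 6.73% lower in infants at an unadjusted p under 0.05 in edgeR. DESeq2 called 0.933% of all genes as lower. The lists were also chosen with earlier results known, so their counts are no test of enrichment. Of 11 other TNF superfamily ligands, 7 could be tested, with a median log2 fold change of 0.06, and 1 was lower in infants at an unadjusted p under 0.05. That gene was Tnfsf13, encoding APRIL, at 2.73 ± 1.15 CPM in infants (SD, n = 4) and 5.99 ± 0.79 CPM in adults (SD, n = 3), and its log2 fold change was -1.13 (SE 0.35). Lta, encoding lymphotoxin alpha, was at 0.78 (SE 0.37) and Tnf at -0.60 (SE 0.30). Of 18 other receptor genes, 13 could be tested, with a median of -0.22, and 3 were lower in infants at an unadjusted p under 0.05, which were Tnfrsf11b (-3.06, SE 0.84), Tnfrsf12a (-0.92, SE 0.31) and Tnfrsf11a (-0.36, SE 0.16). DESeq2 called 1 of them, Tnfrsf11b, the decoy receptor osteoprotegerin, which was at 0 to 0.532 CPM in infants and 0.988 to 5.74 CPM in adults.

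All 12 TRAF adaptor and cIAP genes could be tested, with a median log2 fold change of -0.02, and Traf6 was lower in infants at an unadjusted p under 0.05 (-0.55, SE 0.19). Cflar, encoding an inhibitor of death receptor signalling, was at -0.28 (SE 0.14) and Tradd at 0.26 (SE 0.21). Of 12 NF-kB kinases, subunits and inhibitors, with a median of -0.12, 1 was higher and 2 were lower in infants at an unadjusted p under 0.05. DESeq2 called Rel, which encodes c-Rel, lower in infants, at 78.9 ± 6.81 CPM in infants (SD, n = 4) and 124 ± 6.61 CPM in adults (SD, n = 3). Its log2 fold change was -0.66 with an SE of 0.12, and its adjusted p was 0.155 in edgeR and 0.000356 in DESeq2. The inhibitor genes Nfkbia and Nfkbib were at -0.72 (SE 0.25) and 0.31 (SE 0.12).

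The 10 genes that CD40 engagement is known to raise had a median log2 fold change of -0.28, and Cd40 itself was at 0.07. At an unadjusted p under 0.05, 0 of the 10 were higher and 3 lower in infants, against 6.73% of all genes lower. Ccl17, a chemokine for CCR4-bearing T cells, averaged 205 ± 48.1 CPM in infants (SD, n = 4) and 440 ± 193 CPM in adults (SD, n = 3). DESeq2 called it lower in infants (edgeR log2 fold change -1.10, SE 0.27), as it did the co-stimulatory ligand Cd80 (-0.70, SE 0.18), and not Tnfaip3, encoding the NF-kB inhibitor A20 (-0.67, SE 0.21). The receptor chains for TSLP, an epithelial cytokine known to raise OX40 ligand on dendritic cells, were at -0.20 (SE 0.16) for Il7r and -0.18 (SE 0.22) for Crlf2, and 0 of the 2 passed. The handling response genes, lower in infants as given above, moved in the same direction as these lists, and their part in the lists was not tested.

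**Figure D5:**
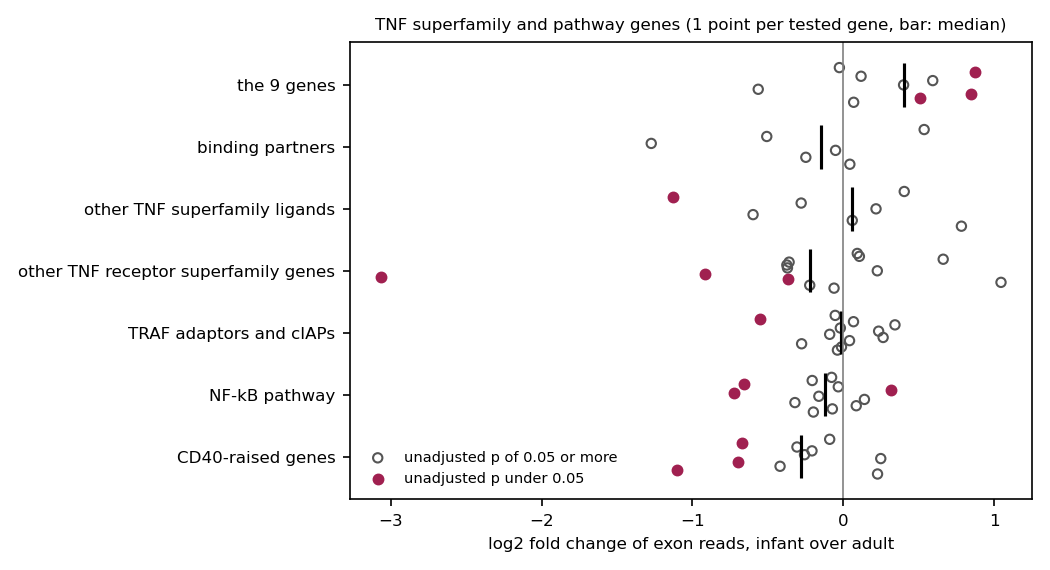
Log2 fold change of exon reads, infant over adult, of the tested genes of each list, with 1 point per gene, the list median as a bar, and filled points for an unadjusted p under 0.05. The median of the 9 genes was 0.40, and those of the other lists ran from -0.28 for genes that CD40 raises to 0.06 for the other ligands.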

How the data were processed

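Per the labels' protocols, RNA of sorted cells was extracted with a column kit and sequenced as Illumina libraries. The deposited gene tables, 1 per library, hold whole read counts for exons, exon-exon junctions and introns, with the authors' RPKM and TPM. Per the submitters' processing notes, the build was mm10 and the tools were Cuffnorm 2.2.1, Cuffdiff 2.2.1, Cufflinks 2.2.1.0 and TopHat2 (2.1.0 and 2.0.14). The sources used here do not give the program that made the tables, its annotation or its use of strand.

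Deposited exon counts were fitted in edgeR 4.0.16 (R 4.3.3) with TMM factors, filterByExpr by group and the robust quasi-likelihood test over 7 libraries, infant over adult, with Benjamini-Hochberg adjustment at 0.05. Tested genes held 99.94% of exon reads. Intron counts were fitted alike over 9602 genes. CPM used TMM-scaled totals, and SE is the log2 fold change over the root of F. DESeq2 1.42.0, limma 3.58.1, other scalings, filters, read types and library sets were alternatives. Within-library ratios had a prior count of 0.5. Locations are from the mm10 annotation. Sequences are from RefSeq. Code was tested on simulated data, where 13.2% of DESeq2's exon calls and 3.73% of edgeR's were false. In simulated intron data these shares were 11.9% and 6.4%. Of simulated 2-fold changes, DESeq2 found 84.6% and edgeR 72.9% in exon data, and 30.3% and 24.6% in intron data. The simulations changed only genes above a minimum level and held no library that stood apart, as infant 2 does. Libraries of 1 group differed by more than counting noise, so none was merged.

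Named genes were all 9, the testable partners, up to 3 genes of smallest unadjusted p per other list and the 5 nearest to Tnfsf4. Tnfrsf18, Sdf4 and the overlapping genes were named for their position. Members and lists were chosen with earlier results of these data known. An item of a marker list is not reported here.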

Additional observations from a re-analysis of the deposited data

Results flagged for a closer look

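Tnfsf15 in infant 1 stood apart from the other infant libraries, at 8.24 CPM against 2.63, 2.79 and 2.40 CPM in infants 2, 3 and 4, while the adult libraries were at 4.18, 3.29 and 3.68 CPM. Its distance from the next infant library, as a share of the infant range, passed the 95% critical value of Dixon's test for 4 libraries. The test was run on 9 groups, the infant libraries of each gene, and chance alone marks about 1 in 20 such groups.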

How the results depend on the processing

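Across 25 alternatives the exon log2 fold change of Tnfsf4 ran between 0.71 and 1.05, that of Tnfrsf4 between 0.65 and 0.98, that of Cd70 between 0.42 and 0.64 and that of Tnfrsf9 between -0.73 and -0.30, with no change of sign. The alternatives with thresholds of 0.01 and 0.1 reuse the main fit and cannot move a fold change. Of the 9 genes 0 passed, except 2 (Tnfsf4 and Tnfrsf4) under DESeq2 and under voom with quality weights, where Tnfsf4 was at 1.00 and Tnfrsf4 at 0.79 (adjusted p = 0.0426 for both). The lowest adjusted p of Cd70 was 0.0675.

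The number of genes called in exon reads, 2, became 183 under DESeq2, 110 with quality weights, 8 with no filter, 6 at an adjusted p of 0.1, 1 with junction reads, 1 under each of the 3 RPKM settings, 0 without infants 1 and 2 and 2 to 10 when 1 library was left out. In intron reads, 52 became 153 under DESeq2, 34 under voom, 271 with no filter, 142 without infants 1 and 2 and 1 to 131 when 1 library was left out, where 0 or 1 of the 9 genes passed. Intron log2 fold changes of Tnfrsf4 ran from 1.29 to 1.72 when 1 library was left out.

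Deviations from the group mean correlated at 0.0332, -0.0345 and 0.101 between same-numbered infant and adult libraries. Between differently numbered ones they correlated at -0.185 to 0.15. Whether the numbers pair the libraries cannot be told from these correlations. With the replicate number as a block, 1 gene was called in exon reads, 0 of the 9 among them, and 16 in intron reads, with Tnfrsf4 still called.

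Uncalled values near 0 turned their sign in these settings. Cd40 exon reads were at -0.0076 with the block and at -0.0042 to 0.12 when 1 library was left out, and its intron reads at -0.15 to 0.012 when 1 was left out and 0.042 without infants 1 and 2. Tnfsf15 was at -0.060 under voom, -0.22 with quality weights, -0.51 to 0.29 when 1 library was left out, -0.52 without infants 1 and 2, -0.013 with log2(RPKM + 1), with or without the filter, and -0.095 with a pseudocount of 0.1. Tnfsf9 exon reads were at -0.15 to 0.13 when 1 library was left out and 0.047 without infants 1 and 2, and its intron reads at -0.042 with the block and -0.039 to 0.17 when 1 was left out. Tnfsf4 intron reads were at -0.48 to 0.059 when 1 library was left out and 0.019 without infants 1 and 2. The cause was not tested. The Tnfsf4 to Cd40 ratio differed by 0.68 to 0.92 when 1 library was left out, where p was 0.1 or 0.133, the smallest such designs allow. Intron settings without infants 1 and 2 and with unique intron reads were chosen after seeing the data. Read depth limits Tnfsf14 and the intron reads of Tnfsf4, Tnfsf13b, Tnfsf15 and Cd70.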
